A study of Mus musculus with 16 samples.

Results

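The genes described here encode the proteins of the cytosolic ribosome and their close copies, in bulk RNA-seq of mouse hearts. Members were the genes of the deposited count table whose symbol begins with Rpl, Rps or Rplp and a number, without the Rps6k kinases and without symbols marked as pseudogenes. The rule gave 88 of 18346 genes. Of these, 43 encode large subunit proteins, 30 small subunit proteins and 3 the stalk proteins Rplp0, Rplp1 and Rplp2. Another 10 are paralogs or retrogene copies, and 2 (Rps19bp1 and Rps23rg1) carry a similar symbol but do not encode a ribosome subunit.

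The hearts came from 4 groups of 4 animals each. They were systemic Armh4 knockout (KO) mice at 25 months, wild-type (WT) mice at 25 months, KO mice at 8 weeks and WT mice at 8 weeks. The 25-month groups are called aged and the 8-week groups young. The wild type was C57BL/6J, all groups had the same housing and normal food, and the labels call the 4 hearts of a group biological replicates that are independent of each other. Armh4 encodes a membrane protein, and its loss was not restricted to the heart, so other organs of the KO mice lacked it too. Sex and sequencing batch were not given in the sources used here.

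Each ribosome holds 1 copy of nearly every ribosomal protein, which sets the members apart from most gene families, and cells keep their production in step. In mammals their mRNAs typically begin with a cytosine followed by a run of pyrimidines, the terminal oligopyrimidine (TOP) tract, through which mTOR complex 1 and the RNA-binding protein Larp1 control their translation. Such control acts on translation, which RNA-seq does not measure. Rpl3l replaces Rpl3 in a share of ribosomes of heart and skeletal muscle, and in mice without Rpl3l the level of Rpl3 is raised.

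The bases around the start site are shown for the 4 members that passed the test in any comparison (Rpl38, Rps27, Rps13 and Rpl3l). They are also shown for Rps2, whose scaled counts were lower in every aged WT heart than in every young WT heart. By FPKM, the other measure given below, these groups overlapped. Start sites are those of RefSeq on GRCm38.p6, which is not the build of the expression files. Each sequence runs from 12 bases before the start site to 18 from it. Capitals mark the longest run of at least 6 bases made of a C followed by C or T. A shorter run of this kind in Rpl38 is left in lower case.
Rpl38, chr11:114668568-114668597, plus strand: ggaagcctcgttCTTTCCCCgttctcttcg
Rps27, chr3:90213631-90213660, minus strand: tccgctttcgCTCCTTTCCggcggtgacga
Rps13, chr7:116334173-116334202, minus strand: agcaaacgtcggtgagtggcgtcaCTTCCT
Rps2, chr17:24720051-24720080, plus strand: cagtcgagatctcgcgCTTCTTggagcact
Rpl3l, site 1, chr17:24727814-24727843, plus strand: tgttctagctctgtcatttgacctctggtg
Rpl3l, site 2, chr17:24732673-24732702, plus strand: atcaacagctacagtgccccaaatgtcctg
The run began on the first base of the transcript in Rpl38 and 2 bases before it in Rps27. It began 12 bases after the first base in Rps13 and 4 after it in Rps2, and was not found in these windows of Rpl3l. Promoter sequences were matched by Entrez identifier for 67 of the 88 members. A run of at least 6 bases that began within 15 bases of a start site was found in 41 of those 67 members (61.2%), against 29.5% of 27025 mouse genes. The run was searched on the gene's own strand and on either side of the start. Runs that did not begin on the first base, as a TOP tract does, were counted too. The ETS-type motif CCGGAAG, searched on both strands from 250 bases before to 50 after the start, was in 37.3% of the members and 9.93% of all genes. The YY1-type motif AAGATGGC, searched in the same way, was in 8.96% of the members and 3.19% of all genes, and the motifs overlapped each other at no member's start site. In Rpl38 a CCGGAAG lay just upstream of the start, and the same 150 bases of both Rpl3l sites held none on either strand. The Rpl38 stretch, chr11:114668430-114668579 on the plus strand, shows it in capitals.
Rpl38, upstream: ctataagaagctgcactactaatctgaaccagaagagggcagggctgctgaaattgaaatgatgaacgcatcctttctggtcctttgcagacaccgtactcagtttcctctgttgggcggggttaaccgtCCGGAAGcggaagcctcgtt

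Total counts were 11456503 to 13298660 per library. The members took 1.68% to 2.59% of them, which is 208927 to 307402 counts a heart. Armh4, the deleted gene, was at 1.14 ± 0.368 CPM (counts scaled to library size) in aged KO hearts and 18.5 ± 1.94 CPM in aged WT hearts, and at 0.374 ± 0.198 CPM in young KO hearts and 15.5 ± 2.49 CPM in young WT hearts (SD, n = 4 each). The 14 ventricular cardiomyocyte markers summed to 90200 to 123000 CPM, as the heart label says. Estimated counts were fractional for 33 members in at least 1 library and for 10 in every library, among them Rps2, Rpl31, Rpl37, Rplp2, Rpl5, Rps25, Rpl9, Rps13 and Rpl37rt. Fractions can arise where reads are divided between similar genes, so the levels of these members are uncertain. Rpl38 and Rpl3l had whole counts in all 16 libraries.

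Levels per length are given as the deposited FPKM. Among the 76 subunit and stalk genes the mean FPKM over 16 hearts had a median of 588. It ran from 29.3 for Rps15a to 1380 for Rpl23a, a 47.3-fold range. Among the highest were Rpl23a (1380 ± 160 FPKM, SD, n = 16), Rps27 (1300 ± 231), Rps2 (1290 ± 110) and Rpl35 (1170 ± 170). The values of these genes overlapped between hearts. Part of the range comes from the length behind each FPKM value. That length was a median of 4870 bases for Rps15a and 3179 for Rps20, whose FPKM was 42.4, and 72 for Rpl38, whose FPKM was 1160. For such short genes the length also differed between libraries, from 61 to 79 bases for Rpl38. Rpl38 and Rps27, at 91 bases, had the shortest lengths of the subunit genes. Comparisons of single genes between groups use counts, which are not adjusted for this length. The paralog ratios below use FPKM, with counts as an alternative.

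The paralogs had very different levels. Rpl3l averaged 250 ± 36.5 FPKM and Rpl3 208 ± 46.6 FPKM, so the muscle form was at the level of its partner. Rpl22l1 averaged 160 ± 41.6 FPKM against 77.9 ± 7.23 FPKM for Rpl22, and Rps27l averaged 212 ± 33.1 FPKM against 1300 for Rps27. Rpl36al, a near-identical copy of Rpl36a, averaged 232 ± 35.4 FPKM against 296 ± 52.1 FPKM for Rpl36a. At the other end, Rpl37rt, Rps27rt, Rpl39l, Rpl6l and Rps23rg1 averaged 2.32, 1.03, 0.188, 0.0581 and 0.0362 FPKM. Rpl39l, a copy best known from male germ cells, had at most 4 counts in any heart, and it was not tested, nor were Rps27rt, Rpl6l and Rps23rg1.

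**Figure D1:**
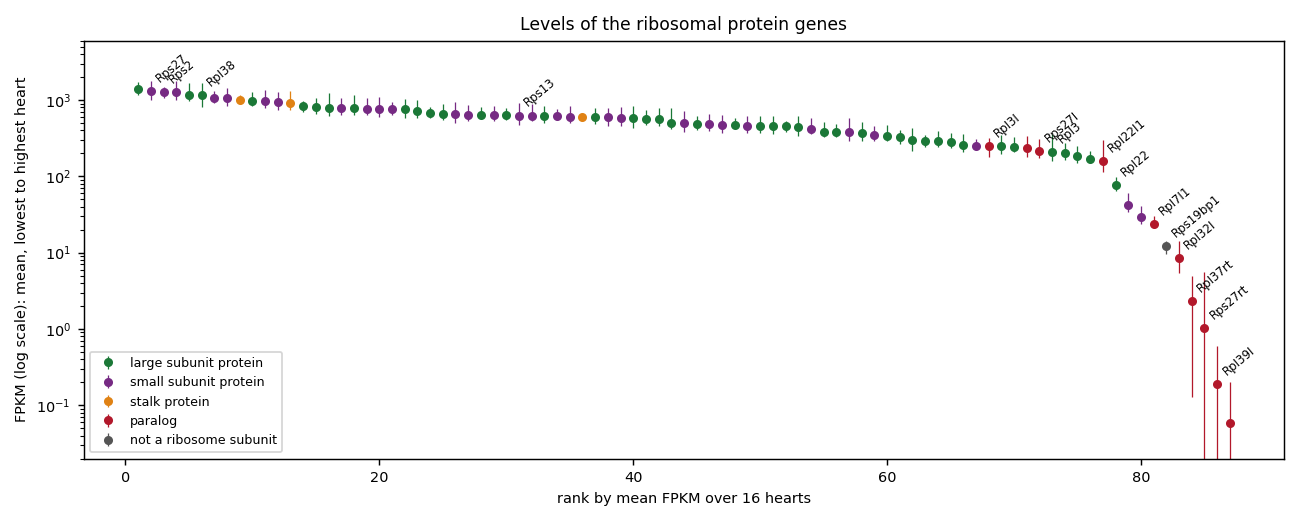
Mean FPKM of the ribosomal protein genes over 16 hearts on a log axis, ordered by level and coloured by role; lines run from the lowest to the highest heart, and lines that reach the lower edge end at hearts listed at 0. Rps23rg1, at 0.0362 FPKM, is left out. Subunit and stalk genes lie between 29.3 and 1380 FPKM, with Rpl3l at 250 beside Rpl3 at 208.

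The members went up and down together from heart to heart. For each of the 81 members with a mean count over 100, the log2 CPM of a heart was set against the gene's mean over 16 hearts, and the median of these deviations describes the heart. It was -0.14, 0.01, -0.15 and 0.07 in the 4 aged KO hearts, in the order of their animal numbers. In aged WT hearts 1, 4, 5 and 12 it was 0.40, 0.05, 0.00 and -0.11. In young KO hearts 27, 31, 38 and 53 it was -0.06, 0.09, -0.11 and 0.16, and in young WT hearts 29, 34, 39 and 42 it was 0.13, -0.13, -0.15 and -0.04. Aged WT heart 1 stood above every other heart, and all 4 groups overlapped. In that heart 79 of the 81 members were above their own mean, and 72 had their highest value of the 16 hearts. In aged WT heart 12, of the same group, 2 of 81 were above their mean.

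Taking off the heart's median lowered the SD over hearts of 78 of the 81 members. The median SD was 0.17 before and 0.075 after, on the log2 scale. The 5 members with the largest SD left were Rpl3l (0.31), Rpl22l1 (0.21), Rpl7l1 (0.20), Rpl3 (0.18) and Rps2 (0.18). Of these, 3 are paralogs, and Rpl3 is the partner of Rpl3l. For Rpl3l, Rpl7l1 and Rps2 the SD was larger after the step than before it (0.25, 0.149 and 0.154 before). Rpl3l lay furthest from the heart's median in aged WT heart 1 (-0.925) and young WT heart 39 (0.525).

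Other short genes moved with the members. The 364 non-member genes with a length under 800 bases and a mean over 5 on the log2 CPM scale had a median deviation of 0.20 in aged WT heart 1. In each group the heart highest for the members was also the highest for these short genes (the aged KO heart with the highest animal number, aged WT 1, young KO 53 and young WT 29). The 717 genes longer than 6000 bases, with the same minimum level, had their lowest median in the same heart in each group, at -0.19 in aged WT heart 1. With a score of these short genes as a covariate, an alternative chosen after seeing the data, the members' median log2 difference was -0.10 in aged KO against aged WT hearts and 0.08 in WT ageing, where it was -0.155 and 0.16 without the score.

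**Figure D2:**
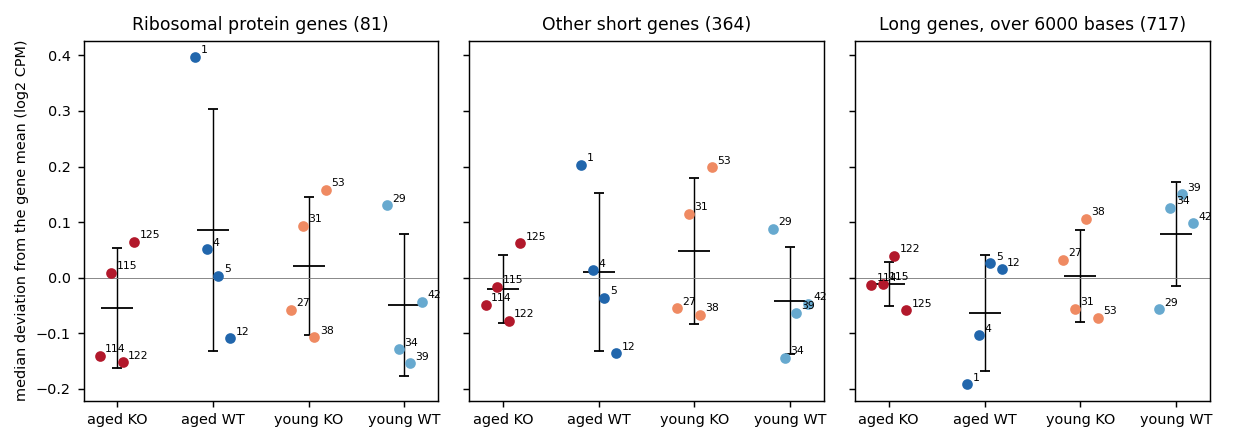
Median deviation of log2 CPM from the gene mean for 81 ribosomal protein genes, 364 other short genes and 717 long genes; points are hearts with their animal numbers, bars the group mean ± SD (n = 4). Aged WT heart 1 is highest for the ribosomal protein genes (0.40) and other short genes (0.20) and lowest for long genes (-0.19).

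The first question is whether the members differed with Armh4 loss in old animals. In aged KO against aged WT hearts, 80 of the 84 members tested had a negative log2 difference, with a median of -0.155, and none passed an adjusted p of 0.05 in the edgeR quasi-likelihood test with Benjamini-Hochberg adjustment over 13373 genes. The background was 0.875% of all genes called, with a median of 0.00. At an unadjusted p under 0.05 there were 9 of the 84 members and 1454 of the 13373 genes. DESeq2 called 1 member (Rps27; DESeq2 adjusted p = 0.0409) and 261 genes in all. All 43 large subunit genes, 29 of 30 small subunit genes and all 3 stalk genes had a negative difference, and none of the 84 had groups that were apart, against 5.05% of all genes tested. Without aged WT heart 1 the members' median was -0.04.

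Rps27, a small subunit protein, had the lowest adjusted p. It was at 108, 119, 92.9 and 104 CPM in aged KO hearts and at 156, 133, 145 and 111 CPM in aged WT hearts. The groups overlapped through aged WT heart 12. The log2 difference was -0.36 ± 0.10 (SE; edgeR adjusted p = 0.118). Rpl10, a large subunit protein needed for late maturation of that subunit, was at 299 to 412 CPM in aged KO hearts and 392 to 529 CPM in aged WT hearts (-0.29 ± 0.10; edgeR adjusted p = 0.259). Rpl21 had a log2 difference of -0.28 ± 0.11 and an edgeR adjusted p of 0.319. Among members with a mean of at least 10 CPM, the largest positive differences were those of Rpl3l (0.22 ± 0.11; edgeR adjusted p = 0.496), Rps2 (0.06 ± 0.09) and Rpl7l1 (0.03 ± 0.10). Rps19bp1, below that level, had one of 0.16 ± 0.12, and none of these was called.

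In young hearts the members' median log2 difference between KO and WT was 0.07, with 71 positive and 13 negative, where the 364 other short genes had 0.10. The members' median was 0.026 without young KO heart 53, 0.14 without young WT heart 29, and -0.01 and -0.04 with the erythroid and the short-gene score as covariate. No member was called by edgeR, against 0.269% of all genes, and none by DESeq2, which called 148 genes in all. At an unadjusted p under 0.05 there were 2 members and 1467 of the 13373 genes. Rpl38, a large subunit protein, was at 79.4, 85.9, 78.4 and 92.7 CPM in young KO hearts and 74.2, 64.2, 63.4 and 70.6 CPM in young WT hearts. By CPM all 4 young KO hearts were above all 4 young WT hearts. By FPKM young WT heart 29 (1140) was above young KO hearts 27 and 38 (1000 and 1030). The difference of 0.30 ± 0.11 did not pass (edgeR adjusted p = 0.304). Groups were apart for 4 of the 84 members and for 8.48% of all genes. Rps21 (0.22 ± 0.14), Rps29 (0.20 ± 0.12), Rpl15 (-0.04 ± 0.09) and Rpl7l1 (-0.13 ± 0.10) were not called either. Rpl3 had the lowest difference, -0.28 ± 0.14 (edgeR adjusted p = 0.488), at 181 to 205 CPM in young KO hearts and 189 to 272 CPM in young WT hearts.

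Ageing in WT hearts was the comparison in which members were called. Rpl38, Rps13 and Rps27 rose and Rpl3l fell in aged WT hearts, 4 of 84 members. Of all genes 21.7% were called, 11.8% rising and 9.93% falling. The members' median log2 difference was 0.16, with 74 positive and 10 negative, while that of all 13373 genes was -0.01. A further 12 members had an unadjusted p under 0.05 without passing. With the 4 called, that made 16 of 84 members, against 4679 of the 13373 genes. By role the median was 0.15 for large subunit genes, 0.18 for small subunit genes and 0.01 for the 3 stalk genes. In CPM the groups were apart for 2 members (Rpl38 and Rps2), or 2.38%, and for 21.7% of all genes.

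Rpl38 was at 118, 87.8, 90.3 and 76.8 CPM in aged WT hearts and 74.2, 64.2, 63.4 and 70.6 CPM in young WT hearts. By CPM every aged heart was above every young one. By FPKM aged WT heart 12 (1130) was below young WT heart 29 (1140). The log2 difference was 0.45 ± 0.11 (edgeR adjusted p = 0.00549), and 0.34 (edgeR adjusted p = 0.0125) without aged WT heart 1. Rps13, a small subunit protein, was at 279, 231, 215 and 202 CPM in aged WT hearts and 208, 166, 160 and 192 CPM in young WT hearts. Young WT heart 29 reached above aged WT heart 12. Rps13 rose by 0.35 ± 0.11 on the log2 scale (edgeR adjusted p = 0.0226), on counts that were fractional in all 16 libraries. Rps27 was at 156, 133, 145 and 111 CPM in aged WT hearts and 123, 99.5, 97.7 and 110 CPM in young WT hearts, and it rose by 0.34 ± 0.10 (edgeR adjusted p = 0.0233). The same aged and young hearts, 12 and 29, overlapped. Without aged WT heart 1, Rps13 (0.26; edgeR adjusted p = 0.063) and Rps27 (0.28; edgeR adjusted p = 0.0553) were no longer called and the members' median was 0.045.

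Rpl3l was at 188, 271, 237 and 204 CPM in aged WT hearts and 298, 256, 352 and 282 CPM in young WT hearts. Aged WT heart 4 was above young WT heart 34, and the other aged hearts were below all young ones. It fell by 0.40 ± 0.11 on the log2 scale (edgeR adjusted p = 0.0156), and without aged WT heart 1 the log2 difference was -0.31 (edgeR adjusted p = 0.0526). Rps2, a small subunit protein, had the next lowest difference. It was at 923, 874, 881 and 746 CPM in aged WT hearts and 1070, 956, 1030 and 965 CPM in young WT hearts, with no overlap, and was not called (-0.23 ± 0.09; edgeR adjusted p = 0.0673). By FPKM Rps2 did overlap, at 1310 in aged WT heart 1 and 1280 in young WT heart 42. Rpl7l1, a paralog of Rpl7, had a difference of -0.19 ± 0.10 and was not called. Where counts were scaled to the ribosomal protein genes themselves, an alternative chosen after seeing the data, Rpl3l (-0.52), Rps2 (-0.37) and Rpl38 (0.30) were called. That setting called 1896 of all genes. In the main fit of WT ageing the 14 ventricular cardiomyocyte markers had a median log2 difference of -0.19, with 12 negative. Of these markers 4 fell, against 9.93% of all genes. Their part in the fall of Rpl3l, a muscle gene, was not tested.

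**Figure D3:**
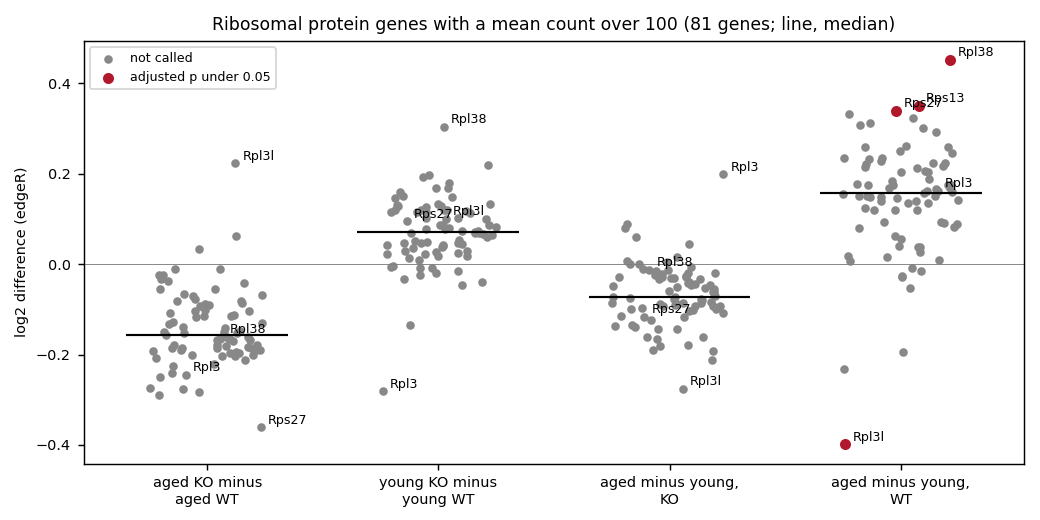
edgeR log2 differences of 81 ribosomal protein genes in 4 comparisons; points are genes, lines medians, and red points have an adjusted p under 0.05. Rpl38, Rps13 and Rps27 at the top (0.45, 0.35 and 0.34) and Rpl3l at the bottom (-0.40) of WT ageing are the called genes, and most grey points lie below 0 for aged KO against aged WT.

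Erythroid, macrophage, neutrophil and T and NK cell markers differed with age in the same WT hearts. The 13 erythroid markers summed to 1230 to 2410 CPM in aged WT hearts and 758 to 896 CPM in young WT hearts, and 8 of the 9 tested rose. The 18 macrophage markers summed to 641 to 882 CPM in aged WT hearts and 245 to 331 CPM in young WT hearts, and 15 rose. The 11 neutrophil markers summed to 22.3 to 36.4 CPM in aged WT hearts and 1.89 to 2.58 CPM in young WT hearts, and all 4 tested rose. The 16 T and NK cell markers summed to 6.08 to 22.7 CPM in aged WT and 2.98 to 4.02 CPM in young WT hearts. Of the 4 tested, 3 rose. Over all genes 11.8% rose in WT ageing. The 12 B and plasma cell markers went the other way. They summed to 78.3 to 84.2 CPM in aged WT and 84.7 to 92.4 CPM in young WT hearts, and none of the 3 tested was called. Aged WT heart 1, highest for the members, also had the highest macrophage sum of the 16 hearts, while the T and NK cell sum was highest in aged WT heart 4 (22.7 CPM, against 13.9 CPM in heart 1). In aged KO hearts the sums were 1080 to 2040 CPM for erythroid, 487 to 536 CPM for macrophage, 4.89 to 15.8 CPM for neutrophil and 3.05 to 7.8 CPM for T and NK cell markers. The macrophage and neutrophil sums lay below those of all aged WT hearts. Against aged WT hearts 2 of the 4 neutrophil markers tested fell, with a median log2 difference of -1.62 over the 4. Of the 18 macrophage and 4 T and NK cell markers tested, 1 each fell. Over all genes 0.875% were called in that comparison. Every marker of these lists that the table holds had a count in at least 1 of the 16 hearts. In bulk tissue, more cells of a type and more RNA per cell cannot be told apart. The part of these cells in the members' differences was not tested. A fit with an erythroid score as a covariate was run. The 9 markers behind the score had median deviations of 0.03 to 0.92 in aged WT and -0.82 to -0.43 in young WT hearts. Score and age therefore cannot be told apart in WT hearts. In that fit 184 of all 13373 genes were called in WT ageing, against 2906 without the score. No member was called, the members' median was -0.12, and Rpl38 had a log2 difference of 0.13 (edgeR adjusted p = 0.854).

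In KO hearts the members' median log2 difference with age was -0.07, and on FPKM it was 0.02. It ran from -0.12 to -0.03 when 1 heart was left out, the ends being without young KO hearts 38 and 53. No member was called by edgeR or DESeq2, against 7.63% of all genes by edgeR and 1230 genes by DESeq2. An unadjusted p under 0.05 was found for 3 of 84 members and 2914 of 13373 genes. Rpl3l was at 236, 262, 272 and 281 CPM in aged KO hearts and 287, 346, 298 and 341 CPM in young KO hearts. All aged KO hearts were below all young KO hearts. The difference of -0.28 ± 0.11 was not called (edgeR adjusted p = 0.153). The 14 ventricular cardiomyocyte markers had a median of -0.20 in KO ageing, with 13 negative and 1 called. Groups were apart for 3 of 84 members, against 15.7% of all genes. Rplp2, a stalk protein, had a difference of -0.21 ± 0.10 and Rpl28, of the large subunit, one of -0.19 ± 0.10. Rpl3 (0.20 ± 0.14) and Rps12 (0.09 ± 0.12) were among the highest, and none of these 4 was called.

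Whether ageing differed between the genotypes was tested by the interaction, the KO ageing difference minus the WT one. The members' median was -0.22, with 79 of 84 negative, where the median of all genes was 0.005. The 364 other short genes had a median of -0.14 (298 negative), and the 76 respiratory chain genes one of -0.15 (69 negative). The 78 mitochondrial ribosomal protein genes had -0.05 (50 negative), and the 717 long genes 0.135 (133 negative). No member was called by edgeR or DESeq2, against 0.464% of all genes by edgeR and 218 genes by DESeq2. At an unadjusted p under 0.05 there were 7 of 84 members and 1637 of 13373 genes. Among the members the lowest adjusted p values were those of Rps27 (-0.46 ± 0.15; edgeR adjusted p = 0.186) and Rpl38 (-0.47 ± 0.15; edgeR adjusted p = 0.204). Both were called in WT ageing and not in KO ageing, while the difference between the genotypes did not pass. The aged KO comparison, WT ageing and the interaction all use the 4 aged WT hearts, heart 1 among them. Without that heart the median of the interaction was -0.12.

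**Figure D4:**
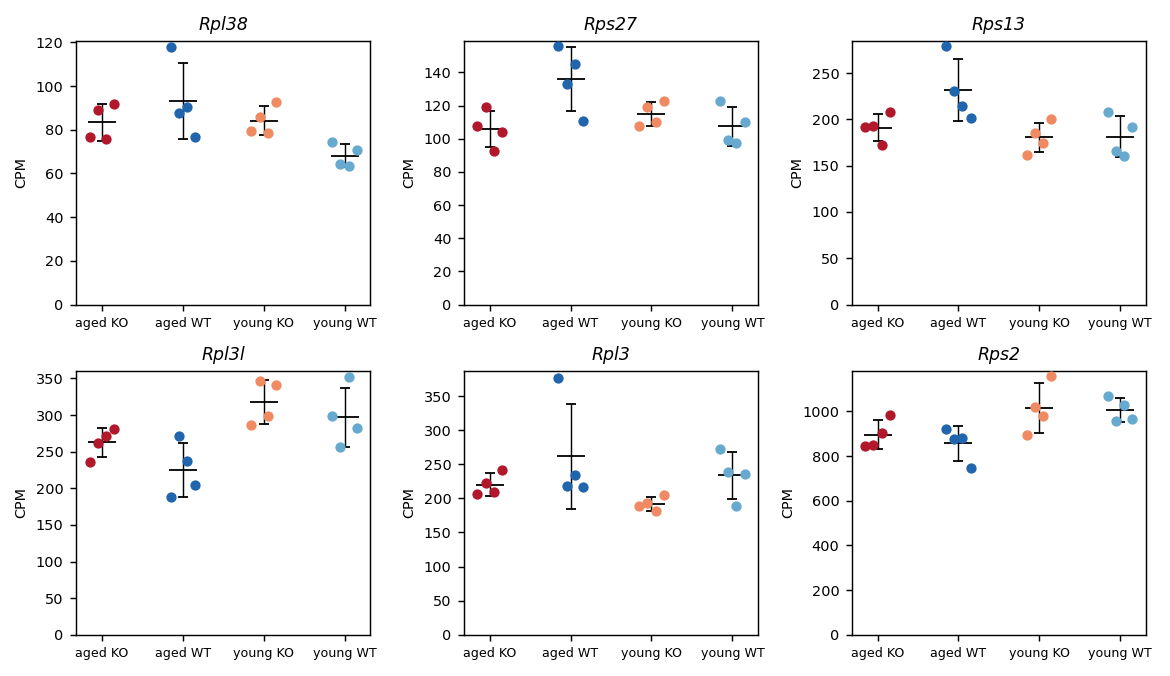
CPM of 6 ribosomal protein genes by heart; points are hearts, bars the group mean ± SD (n = 4), and all axes begin at 0. Rpl38, Rps27 and Rps13 are higher and Rpl3l is lower in aged WT than in young WT hearts, and aged WT heart 1 has 377 CPM of Rpl3, above the other 15 hearts.

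Rpl3 and Rpl3l stood out in opposite directions in aged WT heart 1. Rpl3 was at 377 CPM there, against 218, 234 and 217 CPM in the other aged WT hearts, while Rpl3l at 188 CPM was the lowest of all 16 hearts. The ratio of Rpl3l to Rpl3 in FPKM was 0.503 in that heart. In aged KO hearts it was 1.14, 1.17, 1.29 and 1.16, in the other aged WT hearts 1.24, 1.01 and 0.94, in young KO hearts 1.52, 1.79, 1.65 and 1.67, and in young WT hearts 1.09, 1.07, 1.86 and 1.2. All aged KO hearts were below all young KO hearts. On the log2 scale the ratio averaged 0.25 ± 0.08 in aged KO and 0.73 ± 0.09 in young KO hearts (SD, n = 4 each), a difference of -0.47 with an exact two-sided permutation p of 0.0286, the smallest that 4 against 4 allows. Adjusted over the 12 ratios and comparisons tested, p was 0.343 in that exact test. In WT hearts the ratio averaged -0.19 ± 0.56 when aged and 0.35 ± 0.37 when young (difference -0.53; exact permutation p = 0.171, adjusted 0.343). Without aged WT heart 1 this difference was -0.27, and without young WT heart 39 it was -0.35.

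The ratio of Rpl22l1 to Rpl22 averaged 1.10 ± 0.29 in aged KO, 1.06 ± 0.43 in aged WT, 0.94 ± 0.11 in young KO and 0.94 ± 0.16 in young WT hearts on the log2 scale. The lowest of its 4 adjusted exact permutation p-values was 0.571. The ratio of Rps27l, a p53-regulated paralog, to Rps27 averaged -2.42 ± 0.19 in aged KO and -2.82 ± 0.34 in aged WT hearts (difference 0.40; exact permutation p = 0.0857, adjusted 0.343), and -2.58 ± 0.05 in young KO and -2.62 ± 0.06 in young WT hearts. The length behind the FPKM of Rps27 ran from 79 to 98 bases between libraries. Between young KO and young WT hearts the difference of this ratio was 0.04 on FPKM and -0.008 on counts. With 4 hearts a group, the paralog ratios cannot pass an adjustment over 12 tests unless several reach the smallest p. Rpl36al and Rpl36a had log2 differences of 0.14 ± 0.12 and 0.32 ± 0.12 in WT ageing, Rpl39 one of 0.26 ± 0.13, Rpl7 one of 0.15 ± 0.11 and Rps4x one of 0.23 ± 0.10, and none was called. Rps19bp1, which binds Rps19, was at 6.88, 7.62, 7.01 and 7.28 CPM in aged KO hearts and at 7.62, 6.26, 5.27 and 6.56 CPM in aged WT hearts. In young KO hearts it was at 7.65, 7.41, 7.84 and 8.26 CPM and in young WT hearts at 6.92, 6.44, 5.86 and 6.71 CPM, with no overlap (log2 difference 0.26 ± 0.12; edgeR adjusted p = 0.436). It was not called in any comparison.

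**Figure D5:**
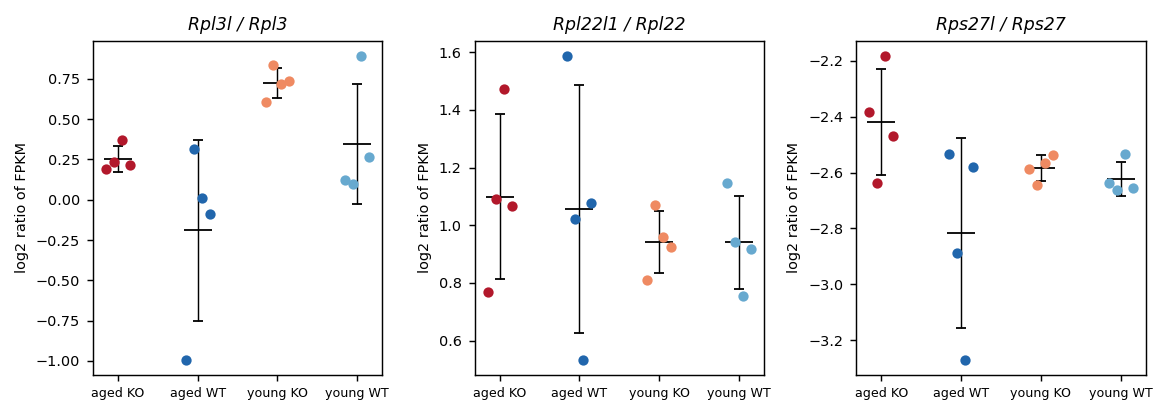
Log2 ratio of FPKM of 3 paralogs to their partners by heart; points are hearts, bars the group mean ± SD (n = 4). The Rpl3l to Rpl3 ratio separates aged KO (0.25 ± 0.08) from young KO hearts (0.73 ± 0.09), and aged WT heart 1 lies lowest at -0.99.

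The genes of the stalk proteins, which recruit elongation factors, were called in no comparison. Rplp0 had log2 differences of -0.03 ± 0.09 in aged KO against aged WT hearts and 0.01 ± 0.09 in WT ageing. Rplp1 had -0.18 ± 0.13 and 0.19 ± 0.13, and Rplp2 had -0.10 ± 0.10 and 0.01 ± 0.10, in the same comparisons. Ribosome components with other symbols were examined too. Fau, whose product yields ribosomal protein eS30, was at 120 to 158 CPM in aged KO hearts and 128 to 181 CPM in aged WT hearts, and its difference in WT ageing was 0.31 ± 0.12 (edgeR adjusted p = 0.0595). Rpsa and Rack1 had WT ageing differences of 0.07 and 0.17, and neither they nor Fau were called in any comparison.

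Other genes of translation were described from lists, to be read against the 21.7% of all genes called in WT ageing and the 7.63% called in KO ageing. Of 11 elongation genes, 1 rose in WT ageing. This was Eef1a1, the main elongation factor that delivers tRNAs, at 1390 ± 183 CPM in aged WT and 984 ± 121 CPM in young WT hearts (SD, n = 4 each; 0.50 ± 0.10; edgeR adjusted p = 0.001). Its mRNA also carries a TOP tract. Of 37 initiation genes, Eif2b4 (-0.27 ± 0.08) and Eif4g1 (-0.36 ± 0.12) fell in WT ageing and none rose, while Pabpc4 fell in KO ageing (-0.38 ± 0.10). Of 58 ribosome biogenesis genes, 2 rose and 4 fell in WT ageing. Sbds, which helps release eIF6 from new large subunits, rose by 0.36 ± 0.08, and Nhp2, a small nucleolar RNP protein, rose by 0.42 ± 0.13. Polr1e, a subunit of RNA polymerase I, which makes ribosomal RNA, fell in aged WT hearts (21.4 ± 5.56 CPM, against 32.2 ± 1.08 CPM in young WT hearts; -0.59 ± 0.16) and in aged KO hearts (19.9 ± 3.41 CPM, against 34.3 ± 5.87 CPM in young KO hearts; -0.79 ± 0.16). The edgeR adjusted p was 0.0107 and 0.004. Of 22 genes of mTOR and growth control, Rps6ka1 rose and Larp4 fell in WT ageing, and Max and Myc rose in KO ageing (0.43 ± 0.11 and 0.69 ± 0.20).

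For the mitochondrial ribosome, which is built from other proteins, the 78 mitochondrial ribosomal protein genes had a median log2 difference of -0.04 in WT ageing, with 2 called higher and 5 called lower, where the cytosolic members had 0.16. In aged KO against aged WT hearts their median was -0.02 with none called, where the cytosolic members had -0.155. The difference between these lists was not tested. The 76 tested nuclear genes of the respiratory chain had medians of 0.03 and 0.00 in the same comparisons. In aged KO against aged WT hearts edgeR called no gene of the elongation, initiation, biogenesis, growth control, respiratory chain or mitochondrial ribosome lists. The share over all genes was 0.875%. At an unadjusted p under 0.05 these lists had 1 of 11, 2 of 37, 1 of 58, 1 of 22, 0 of 76 and 3 of 78 genes. Of all 13373 genes there were 1454.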

How the data were processed

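RNA-seq of 16 hearts was used as deposited. The authors deposited a table of expected counts, many of them fractional, and a table of FPKM, normalized by them for depth and gene length. The submitters' processing notes name HISAT, Bowtie2 and GRCm39, while the program that counted reads is not stated in what was used here. Groups follow the genotype and age labels, although 4 titles of young WT hearts spell the genotype differently. The members and lists were chosen with earlier results of these data known.

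Counts were rounded and fitted with edgeR 4.0.16 in R 4.3.3 (filterByExpr, TMM scaling, robust dispersion, quasi-likelihood test, all 16 libraries). This left 13373 genes, 84 of them members. CPM values used the TMM-scaled library sizes, and whether groups were apart was judged on CPM. A gene is said to have risen or fallen where the Benjamini-Hochberg adjusted p was under 0.05. The scripts were tested on simulated data. Alternatives used DESeq2 1.42.0, limma 3.58.1 on log2(FPKM + 1) or log2(FPKM + 0.1), other scalings, covariates and each heart left out. Paralog ratios were tested by exact two-sided permutation (scipy 1.17.1). Named members were those called, the 3 most extreme in each direction per comparison with a mean of at least 10 CPM, the 5 highest and lowest levels, and the paralogs, partners and stalk proteins; a few of these genes are not reported here. Animal numbers were not shared between groups, so hearts were not paired.

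Promoters came from RefSeq on GRCm38.p6. Total counts of over 11456503 per library leave the spread between hearts, not counting error, as the limit for all but the lowest members.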

Additional observations from a re-analysis of the deposited data

Results flagged for a closer look

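A heart far from the other 3 in its group was looked for in 38 items, 152 sets in all. Most items were the CPM of a named member. The others were the members' median deviation and share of counts, the short genes' median deviation and the 3 paralog ratios. In 9 sets the gap between the outermost heart and its neighbour was a larger part of the group's range than Dixon's 95% critical value for 4 samples allows, and chance alone gives about 1 in 20. Aged WT heart 1 was the outermost for Rpl3 (377 CPM, against 217 to 234 in the other aged WT hearts), Rpl36al (82.8 CPM, against 53.3 to 57.3) and Rpl39 (131 CPM, against 80.4 to 87.6). Young WT heart 29 was the outermost for Rpl15 (301 CPM, against 269 to 271) and Rpl35 (242 CPM, against 197 to 204). Young KO heart 53 was the outermost for Rpl22 (168 CPM, against 152 to 154). Each of these hearts is also the one in which the members as a group were highest within its group. Rps27rt, a retrogene copy with at most a few counts per heart, was above 0 in 1 heart only of the aged KO (0.315 CPM), aged WT (0.599 CPM, heart 12) and young KO group (0.337 CPM, heart 53). Its counts were fractional in 5 libraries, so they are uncertain.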

How the results depend on the processing

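No direction of a called member was reversed in any of the alternatives run, but the calls in WT ageing (4 members) depended on the setting. There were 9 with upper-quartile scaling, 12 with library size only, 9 with DESeq2, 9 with limma on log2(FPKM + 1), 9 on log2(FPKM + 0.1), 1 with the 8 WT libraries alone, 0 with an erythroid score as covariate and 10 with a short-gene score. Over all genes these settings called, in the same order, 2778, 2729, 3127, 2635, 2651, 2008, 184 and 3057. They tested 13373 genes, or 13059 with the 8 WT libraries alone. Leaving out 1 heart gave 1 to 13, with 1 without aged WT heart 1 or young WT heart 39, 2 without young WT heart 34, 10 without aged WT heart 12 and 13 without young WT heart 29. In that order these fits called 2664, 2111, 2277, 2721 and 2764 of 13443 to 13498 genes. Rpl38 stayed called in 27 of 28 settings, Rpl3l in 23, Rps13 in 22 and Rps27 in 21. These settings include the fits that left out 1 KO heart, which is not part of WT ageing. All 4 members were called in each of those, where little could change (Rps27 at 0.338 to 0.35). Such fits therefore say little about how stable the calls are. In aged KO against aged WT hearts DESeq2 called 1 member (Rps27), and leaving out 1 heart gave 0 to 1 (Rps27 without aged WT heart 12). Over all genes these 2 settings called 261 and 251.

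The median of the members in WT ageing was -0.12 with the erythroid score, and that of the interaction was -0.031 with it and -0.053 with the short-gene score. The cause was not tested, and in WT hearts the erythroid score cannot be told apart from age. The short-gene score and the scaling to the ribosomal protein genes were chosen after seeing the data. That scaling, by construction, moved the median of all genes in WT ageing to -0.14. The young KO median (0.07) had the opposite sign with either score (-0.01 and -0.04). Over all genes, aged KO against aged WT gave 117 calls, 261 with DESeq2, 73 with log2(FPKM + 0.1), 17 with its 8 libraries alone and 22 with the erythroid score, and WT ageing gave 184 with that score against 2906. Of the WT ageing calls 54.3% rose, and 68.2% with upper-quartile scaling, 71.6% with library size only and 72.3% with log2(FPKM + 1). No paired analysis was possible because the groups share no animal numbers.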
